A study of Mus musculus with 43 samples.

Results

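The genes described here are 9 mouse enzymes that handle acetate, propionate, butyrate and ketone bodies, chosen by symbol from the 54532 genes of the read count table. They are *Acss1* and *Acss2*, which activate acetate, *Pcca* and *Pccb*, the subunits of propionyl-CoA carboxylase, *Acads* and *Acadm*, which start the oxidation of short- and medium-chain fatty acids, and *Acat1*, *Bdh1* and *Oxct1*, which interconvert ketone bodies and acetyl-CoA. All 9 were found once each in the table, and all 9 passed the filter on low counts that left 18197 genes to test.

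Short-chain fatty acids (SCFA) are products of the bacterial fermentation of fibre that reach tissues through the blood. Inside a cell each is first joined to coenzyme A. Acetate becomes acetyl-CoA, in mitochondria by *Acss1* and in the cytosol and nucleus by *Acss2*. Propionyl-CoA is carboxylated in mitochondria and leads by way of methylmalonyl-CoA to succinyl-CoA. Butyryl-CoA enters beta-oxidation, which ends in acetyl-CoA. Ketone bodies enter the same pool when hydroxybutyrate is oxidized by *Bdh1*, acetoacetate receives coenzyme A from *Oxct1*, and the mitochondrial thiolase *Acat1* splits acetoacetyl-CoA. In the retina, whose photoreceptors have a high demand for fuel, ketone body and fatty acid oxidation are among the routes by which acetyl-CoA is made.

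The libraries came from the retina of C57BL/6J mice given laser burns at 9 weeks of age, a model of choroidal neovascularization. SCFA animals drank water with 67.5 mM sodium acetate, 40 mM sodium propionate and 25 mM sodium butyrate from 3 weeks before the laser until collection, and the control animals were lasered but had no SCFA in their water. The gram amounts stated beside these concentrations, 5.54, 2.48 and 4.4 g/L, do not all correspond to them, so the doses of propionate and butyrate are uncertain. Each of the 43 libraries was a pool of 2 retinas of the same group, and the 12 groups were males and females, control or SCFA, collected on day 3, 7 or 14 after the laser (days post-laser, dpl), with 3 to 5 libraries each. Every retina was lasered, so no library shows the uninjured level of these enzymes. The whole retina was used, in which fewer cells of a type and less RNA per cell cannot be told apart.

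Library totals ran from 14826957 to 21507527 counts. The table's columns fall into a first run of 31 libraries and a second run of 12, which differed in 52% of all genes tested and in the share of counts on mitochondrial genes, between 5.19% and 16.6% in the first run and between 2.65% and 4.87% in the second. The reported fit has the run as a block. The second run held no controls of either sex at 7 dpl and no female controls at 3 dpl. It held 2 SCFA libraries of males and 1 of females at 7 dpl, and 2 of females at 3 dpl. In these comparisons the run effect was thus estimated without controls of the same sex and day. 3 libraries stood apart. Male SCFA replicates 1 and 3 at 7 dpl had the largest mitochondrial shares, 15.3% and 16.6%, and female SCFA replicate 2 at 3 dpl held 199378 CPM (counts relative to library size, on edgeR's TMM scale) of the lens crystallin genes *Cryaa*, *Crygs*, *Crybb2* and *Cryba1*, against 592 CPM at most in the others. The library labelled female control replicate 2 at 7 dpl had 784 counts of 4 Y-linked genes, which the other 21 libraries labelled female lacked. The 5 rod markers summed to between 45856 and 96044 CPM, so the labelled tissue was seen in every library. Oligodendrocyte markers reached 839 CPM in male control replicate 3, 631 CPM in male SCFA replicate 2 and 245 CPM in male control replicate 2, all at 7 dpl. Their median in the controls was 29.4 CPM. Values without the libraries that stood apart, in the first run alone or with the mitochondrial share as covariate are given where they change a call. The part of the oligodendrocyte markers in the results was not tested.

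Differences were tested with the quasi-likelihood test of edgeR. Adjusted p-values below were corrected over the 18197 genes by the method of Benjamini and Hochberg, and a gene was called at an adjusted p under 0.1. A log2 fold change is SCFA minus control unless stated, with its standard error (SE).

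Levels per length of exon separated the enzymes. *Acadm* had the highest level, with a median of 35.4 CPM per kb over the 43 libraries and a range of 27.9 to 42.8, followed by *Oxct1* with 26.2 (21.4 to 31.3), *Pccb* with 18.1 (13.8 to 29.1) and *Acat1* with 14.4 (11.9 to 19.9). Neighbours among these 4 overlapped. *Bdh1*, at 8.86 CPM per kb (6.69 to 10.9), lay below all of them without overlap. *Acss2* had 3.87 CPM per kb (3.13 to 4.74) and *Pcca* 3.12 (2.38 to 4.44), which overlapped each other, and *Acads* had 1.84 (1.14 to 3.13). The exons of *Acss2* span 10163 bases in all, more than in any of the other 8, and a shorter transcript in use would give it a higher level per length. *Acss1* was close to absent, at 0.124 CPM per kb (0.0277 to 0.289), with 2 to 24 counts per library and 3 libraries at 3 counts or fewer. Among the enzymes that activate acetate, the transcript for the cytosolic form was therefore the one well measured.

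**Figure D1:**
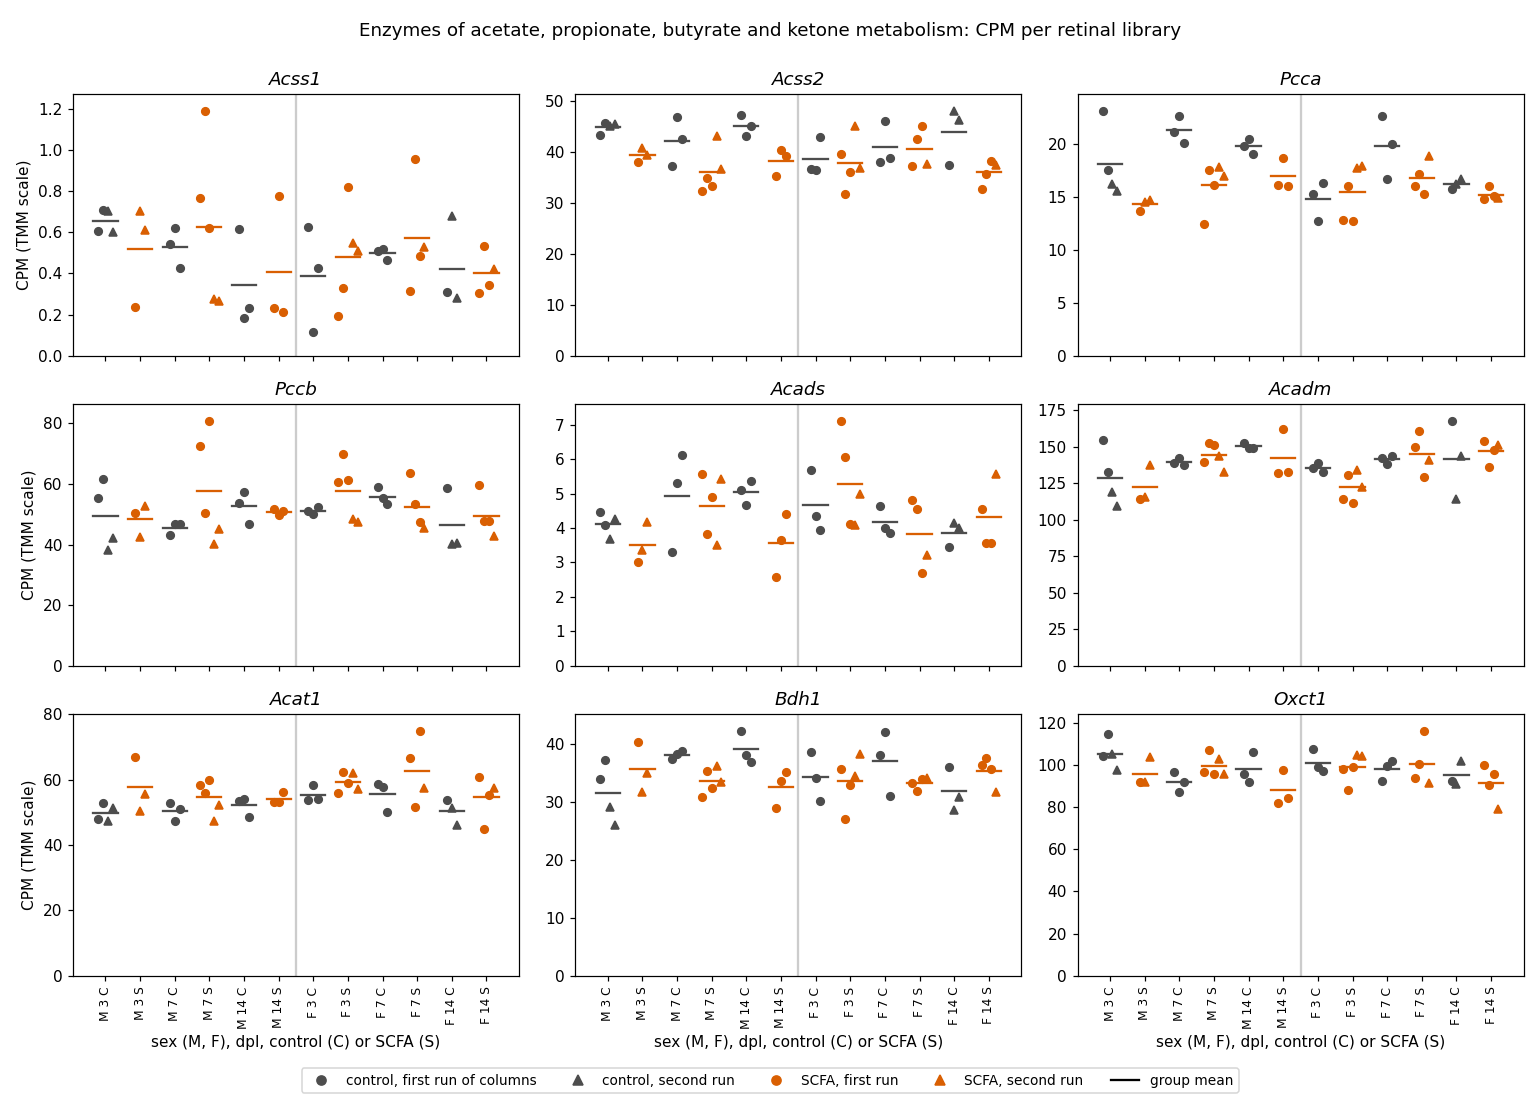
CPM of the 9 enzymes in each of the 43 libraries, with sex, day post-laser and treatment on the x axis, CPM from 0 on the y axis, circles for the first and triangles for the second run of columns, and bars for group means. *Acss2* was lower with SCFA on average in all 6 pairs of sex and day, while *Acat1* was higher in all 6 and the 5 libraries of *Pccb* in SCFA males at 7 dpl split between 40.3 and 80.8 CPM.

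With SCFA, averaged over both sexes and all 3 days, *Acss2* and *Pcca* fell and *Acat1* and *Pccb* rose, all by small amounts. 4 of the 9 enzymes were called, in a comparison in which 34.7% of all genes tested were called, so their number was close to that of genes in general. 2 of the 9 were lower, where 17% of all genes were, and 2 were higher, where 17.7% of all genes were. The median log2 fold change of the 9 was -0.03, and that of all genes 0.0031. None passed an added limit of 1 on the absolute log2 fold change, which 0.703% of all genes passed. The study states a limit of 1 on the fold change, read here as one on the log2 scale. The median absolute log2 fold change of all genes called was 0.25, above each of these 4. Cell type markers were called in the same comparison. Of the ganglion cell markers 3 of 4 were lower, and their sum ranged from 539 to 1011 CPM in controls and from 516 to 823 CPM with SCFA. Of the Müller glia markers 2 of 4 were higher, with sums of 3143 to 5540 CPM in controls and 3405 to 8448 CPM with SCFA, and 4 of 4 lens markers were higher, with sums of 0.057 to 350 CPM in controls and 2.71 to 199378 CPM with SCFA. Also called were 1 of 5 rod and 1 of 3 amacrine markers, higher, and 1 of 5 microglia markers, lower, and none of those of cones, bipolar cells, pigment epithelium, oligodendrocytes or endothelium. The part of these cell types in the changes of the 9 enzymes was not tested.

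*Acss2*, on chromosome 2 from 155517948 to 155585724 on the plus strand (GRCm38, 19 exon blocks), encodes the acetyl-CoA synthetase of cytosol and nucleus. In males at 3 dpl, control replicates 1 to 4 had 43.3, 45.8, 45.1 and 45.6 CPM and SCFA replicates 1 to 3 had 38.1, 40.9 and 39.4 CPM. In males at 7 dpl, the controls had 37.4, 47.0 and 42.5 CPM and the SCFA libraries 32.3, 35.0, 33.4, 43.2 and 36.7 CPM. In males at 14 dpl, the controls had 47.4, 43.2 and 45.1 CPM and the SCFA libraries 35.3, 40.4 and 39.3 CPM. In males all SCFA libraries thus lay below all controls at 3 and 14 dpl, and at 7 dpl 1 SCFA library, replicate 4, lay above 2 of the 3 controls. The share of all genes with libraries separated in this way was not counted. In females at 3 dpl, the controls had 36.8, 36.4 and 43 CPM and the SCFA libraries 39.8, 31.8, 36.2, 45.2 and 37.0 CPM. In females at 7 dpl, the controls had 38.1, 46.1 and 38.8 CPM and the SCFA libraries 37.2, 42.6, 45.1 and 37.7 CPM. In females at 14 dpl, the controls had 37.5, 48.1 and 46.4 CPM and the SCFA libraries 32.8, 35.7, 38.2 and 37.4 CPM. The groups of females overlapped on each day, with lower SCFA means each time.

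Over both sexes and all days *Acss2* had a log2 fold change of -0.18 (SE 0.04, adjusted p = 0.00192), and fell by 11.8%. Of all genes, 40.0% changed more. In males alone over the 3 days, where 4 of the 9 enzymes were called, the change was -0.24 (SE 0.06, adjusted p = 0.00454), with 30% of all genes called, and in females alone -0.12 (SE 0.06, adjusted p = 0.30), with 4.5% of all genes called. The decrease over all groups was kept when each of the 43 libraries was left out in turn, between -0.20 and -0.17, and was -0.16 without the 3 libraries that stood apart (adjusted p = 0.00668). Its exons share 395 bases with *Gss*, 197 with *Ggt7* and 335 with *Acss2os*, all on the opposite strand, and the strand setting of the counting was not given in the sources used here. *Ggt7* had a log2 fold change of -0.12 (SE 0.04, adjusted p = 0.0106) and *Gss* one of 0.19 (SE 0.17, adjusted p = 0.424), while *Acss2os* had a median of 0 CPM.

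*Pcca*, on chromosome 14 from 122534324 to 122891100 on the plus strand (28 exon blocks), encodes the alpha subunit of propionyl-CoA carboxylase, which carries the biotin. In males at 3 dpl, the controls had 23.1, 17.5, 16.2 and 15.6 CPM and the SCFA libraries 13.6, 14.6 and 14.7 CPM. In males at 7 dpl, the controls had 21.2, 22.6 and 20.1 CPM and the SCFA libraries 12.4, 17.5, 16.1, 17.9 and 17.0 CPM. In males at 14 dpl, the controls had 19.9, 20.5 and 19.0 CPM and the SCFA libraries 16.1, 18.7 and 16.0 CPM. Every SCFA library of the males was below every control of its day, at all 3 days. How many of all genes were separated like this was not counted. In females at 3 dpl, the controls had 15.3, 12.7 and 16.4 CPM and the SCFA libraries 12.8, 16.1, 12.7, 17.7 and 18.0 CPM. In females at 7 dpl, the controls had 22.6, 16.7 and 20.0 CPM and the SCFA libraries 16.0, 17.1, 15.3 and 18.9 CPM. In females at 14 dpl, the controls had 15.8, 16.3 and 16.7 CPM and the SCFA libraries 14.8, 16.0, 15.1 and 14.9 CPM. In females the groups overlapped on each day, and the SCFA mean was the higher one at 3 dpl.

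Over both sexes and all days *Pcca* had a log2 fold change of -0.22 (SE 0.06, adjusted p = 0.00370), and fell by 14.0%. Of all genes, 31.8% changed more. It stayed between -0.24 and -0.20 without any one library and was -0.21 without the 3 that stood apart (adjusted p = 0.00725). In males over the 3 days it was -0.34 (SE 0.08, adjusted p = 0.00246), so that it fell by 21%, and in females -0.10 (SE 0.08, adjusted p = 0.550). The difference between the sexes in this response was -0.24 (SE 0.11, unadjusted p = 0.0343, adjusted p = 0.674), so a different response in males was not shown. *Ggact*, which shares 241 exonic bases with *Pcca* on the opposite strand, had a log2 fold change of -0.05 (SE 0.07, adjusted p = 0.670).

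*Pccb*, on chromosome 9 from 100982032 to 101034898 on the minus strand (15 exon blocks), encodes the beta subunit of the same carboxylase, which transfers the carboxyl group to propionyl-CoA. In males at 3 dpl, the controls had 55.4, 61.6, 38.2 and 42.1 CPM and the SCFA libraries 50.3, 42.5 and 52.9 CPM. At 7 dpl the male controls had 43.2, 46.8 and 46.7 CPM and the SCFA libraries 72.7, 50.3, 80.8, 40.3 and 45.1 CPM. In males at 14 dpl, the controls had 53.6, 57.5 and 46.8 CPM and the SCFA libraries 51.8, 49.9 and 50.9 CPM. The groups overlapped on each day, and at 7 dpl SCFA replicates 1 and 3 were far above the other libraries. In females at 3 dpl, the controls had 51.0, 50.04 and 52.5 CPM and the SCFA libraries 60.8, 70.0, 61.4, 48.4 and 47.3 CPM. In females at 7 dpl, the controls had 59.0, 55.2 and 53.3 CPM and the SCFA libraries 63.7, 53.4, 47.5 and 45.5 CPM. In females at 14 dpl, the controls had 58.8, 40.1 and 40.6 CPM and the SCFA libraries 59.7, 47.7, 47.7 and 42.8 CPM. These also overlapped on each day, and the lowest values were mostly those of the second run.

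*Pccb* was lower in the second run of columns than in the first, with a log2 difference of -0.43 (SE 0.07, adjusted p = 3.21e-06). *Acss2* was the other one of the 9 called between the runs, at 0.13 (SE 0.06, adjusted p = 0.0622). With the run as block, *Pccb* rose with SCFA over both sexes and all days by 0.13 on the log2 scale (SE 0.05, adjusted p = 0.0584), an increase of 9.5%. This call was lost in the first run alone (log2 fold change 0.07, adjusted p = 0.484), without the run as block (0.07, adjusted p = 0.546), with the mitochondrial share in place of the run (0.02, adjusted p = 0.836) and without the filter on low counts (0.13, adjusted p = 0.157). It was lost, too, without male SCFA replicates 1 and 3 at 7 dpl (0.08, adjusted p = 0.199) and without all 3 libraries that stood apart (0.07, adjusted p = 0.298). It was also lost without male SCFA replicate 3 at 3 dpl (0.11, adjusted p = 0.117) or male control replicate 3 at 14 dpl (0.12, adjusted p = 0.103).

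The ratio of *Pccb* to *Pcca* CPM in a library, which does not depend on the scaling between libraries, had a median of 2.70 in the 15 controls and 3.45 in the 16 SCFA libraries of the first run. In the second run it was 2.45 in 4 controls and 2.69 in 8 SCFA libraries, and the ranges overlapped in both runs. The group mean was higher with SCFA in each of the 6 pairs of sex and day, by the least in females at 7 dpl, with 2.86 ± 0.387 (SD, n = 3) in controls and 3.15 ± 0.646 (SD, n = 4) with SCFA. In males at 7 dpl it was 2.14 ± 0.155 (SD, n = 3) in controls and 3.73 ± 1.60 (SD, n = 5) with SCFA. The 2 SCFA libraries with the largest mitochondrial shares had ratios of 5.86 and 5.01 there, and the remaining 3 had 2.87, 2.26 and 2.66, of which 1 of 3 lay within the control range of 2.04 to 2.32. No test was made of this ratio.

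**Figure D2:**
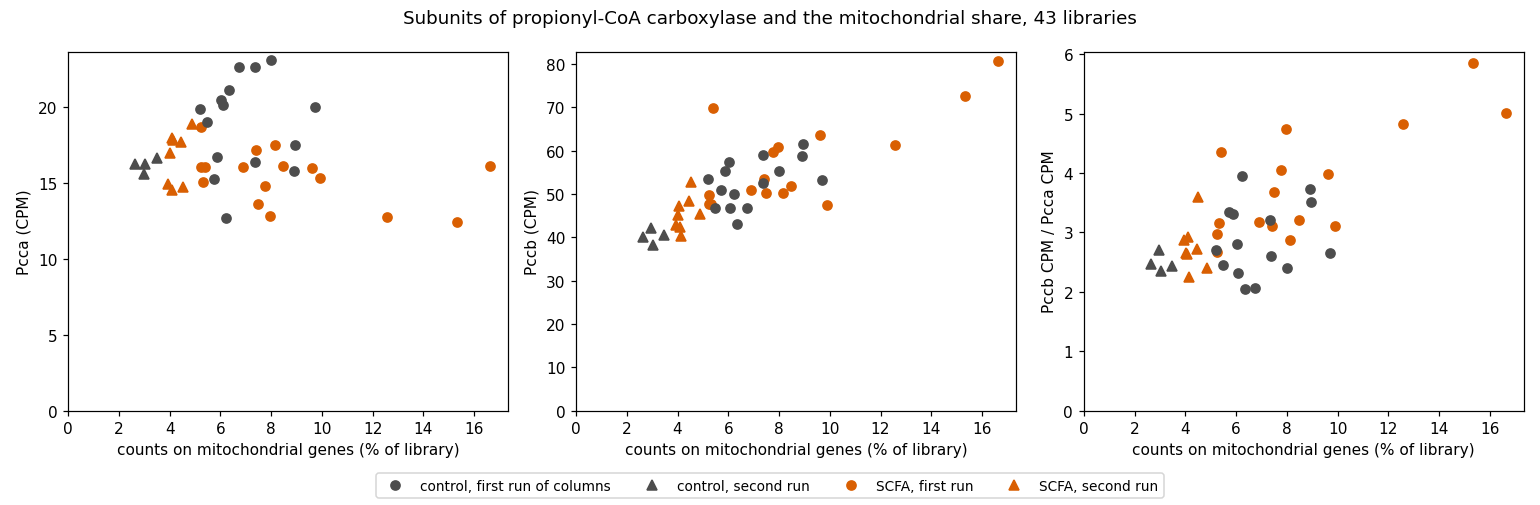
*Pcca* CPM, *Pccb* CPM and their ratio on the y axes against the percent of a library's counts on mitochondrial genes on the x axes, 1 point for each of the 43 libraries, coloured by treatment and shaped by run of columns. *Pccb* was highest, at 72.7 and 80.8 CPM, in the libraries with mitochondrial shares of 15.3% and 16.6%, and *Pcca* was between 12.4 and 23.1 CPM.

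*Acss2* fell, and the 2 subunits of 1 enzyme were called in opposite directions in the reported fit, though the call of *Pccb* was lost under several alternatives. Windows of 250 bases before a start that RefSeq annotates are given for these 3 genes, so that their promoters can be compared. They are RefSeq sequences on GRCm38.p6, written on the strand of the gene, and the capitals mark CCAAT boxes and GGGCGG (GC) boxes on either strand, where no 2 marked motifs overlap. The RefSeq starts lie inside the genes as placed above, so the windows reach 95 bases into *Acss2*, 4 into *Pcca* and 14 into *Pccb*.
Acss2, chr2:155517793-155518042, plus strand: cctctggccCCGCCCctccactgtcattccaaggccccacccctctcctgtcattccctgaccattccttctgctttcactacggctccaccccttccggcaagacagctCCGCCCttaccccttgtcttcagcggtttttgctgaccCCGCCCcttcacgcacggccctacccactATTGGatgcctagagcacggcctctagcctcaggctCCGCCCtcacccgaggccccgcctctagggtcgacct
Pcca, chr14:122534078-122534327, plus strand: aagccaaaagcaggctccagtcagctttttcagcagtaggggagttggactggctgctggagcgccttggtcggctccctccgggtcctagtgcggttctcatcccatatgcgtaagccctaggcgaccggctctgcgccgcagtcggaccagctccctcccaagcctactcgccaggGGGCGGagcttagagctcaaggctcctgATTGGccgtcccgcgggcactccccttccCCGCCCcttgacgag
Pccb, chr9:101034885-101035134, minus strand: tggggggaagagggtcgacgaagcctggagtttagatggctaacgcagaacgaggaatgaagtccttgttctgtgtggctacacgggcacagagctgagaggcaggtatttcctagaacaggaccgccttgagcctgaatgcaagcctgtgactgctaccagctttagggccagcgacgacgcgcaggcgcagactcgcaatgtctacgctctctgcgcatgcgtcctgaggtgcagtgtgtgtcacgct
The *Acss2* window held 4 GC boxes and 1 CCAAT box, this *Pcca* window 2 and 1, and the *Pccb* window neither. RefSeq has another *Pcca* start, 49959 bases away from the gene start given above, whose window, not printed, held no GC box and 1 CCAAT box. Of 32841 windows of this length in the table, 32.7% held a GC box and 33.9% a CCAAT box. The E-box CACGTG, in 6.02% of the windows, and the sterol regulatory element TCACNCCAC, in 1.05%, were also searched on both strands and were in none of the 3. Entries existed for 8 of the 9 genes, the exception being *Acat1*. These matches describe the letters of the windows only.

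*Acat1*, on chromosome 9 from 53580522 to 53610382 on the minus strand (12 exon blocks), encodes the mitochondrial thiolase that acts at the end of ketone body use and of the breakdown of isoleucine. In males at 3 dpl, the controls had 48.0, 52.9, 47.4 and 51.3 CPM and the SCFA libraries 66.7, 50.5 and 55.7 CPM. At 7 dpl the male controls had 52.9, 47.4 and 50.9 CPM and the SCFA libraries 58.5, 55.8, 59.9, 47.3 and 52.3 CPM. In males at 14 dpl, the controls had 53.5, 54.2 and 48.5 CPM and the SCFA libraries 53.0, 53.2 and 56.1 CPM. SCFA means were higher on each day in males, with overlap. In females at 3 dpl, the controls had 53.8, 58.2 and 54.1 CPM and the SCFA libraries 55.9, 62.4, 59.0, 61.9 and 57.0 CPM. In females at 7 dpl, the controls had 58.7, 57.8 and 49.9 CPM and the SCFA libraries 66.6, 51.7, 74.8 and 57.4 CPM. In females at 14 dpl, the controls had 53.8, 51.2 and 46.0 CPM and the SCFA libraries 60.9, 44.8, 55.3 and 57.3 CPM. The females showed the same order of means and overlapped on each day too.

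Over both sexes and all days *Acat1* rose by 0.14 on the log2 scale (SE 0.04, adjusted p = 0.0137), an increase of 10.3%. The change was 0.15 in males (SE 0.06, adjusted p = 0.0887) and 0.14 in females (SE 0.06, adjusted p = 0.217) over the 3 days, nearly the same value. It stayed between 0.12 and 0.16 without any one library and was 0.12 without the 3 that stood apart (adjusted p = 0.0467). Over all genes the response to SCFA fell with the GC content of the longest transcript (Spearman's rho = -0.44 across genes, which are not independent replicates). *Acat1* had the lowest GC content of the 9, at 45.5%, and with this trend removed its change was 0.09 (adjusted p = 0.130), no longer called.

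The remaining 5 enzymes did not pass the test over both sexes and all days. *Acadm*, the medium-chain acyl-CoA dehydrogenase, ranged from 109 to 167 CPM and had a log2 fold change of -0.02 with an interval of 2 SE from -0.10 to 0.07. *Oxct1*, the transferase that activates acetoacetate outside the liver, ranged from 79.2 to 116 CPM and had -0.03, with an interval from -0.11 to 0.04. *Bdh1*, the mitochondrial hydroxybutyrate dehydrogenase, ranged from 26.0 to 42.2 CPM and had -0.04, with an interval from -0.13 to 0.06. These 3 intervals are narrower than those of the low transcripts that follow. *Acads*, the short-chain acyl-CoA dehydrogenase that acts on butyryl-CoA, ranged from 2.59 to 7.11 CPM and had -0.10, with an interval from -0.30 to 0.09. *Acss1* had 0.10 with an interval from -0.36 to 0.56, which is too wide at its depth to show a change of the size seen in *Acss2*.

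**Figure D3:**
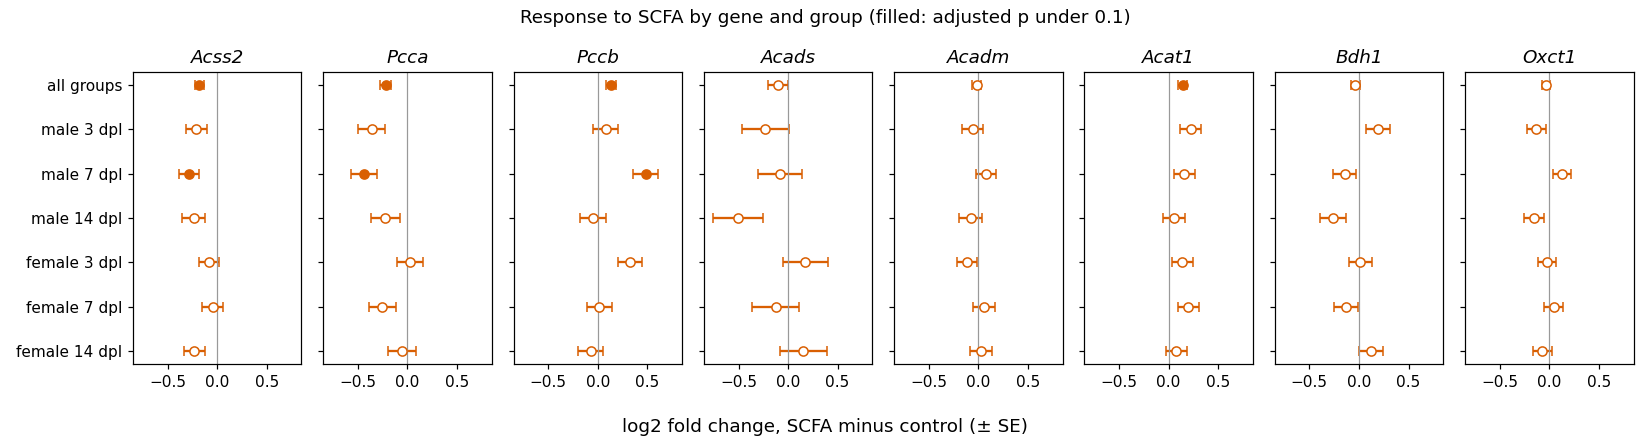
Log2 fold change of SCFA against control (x axis, bars 1 SE) for 8 enzymes, over all groups and for each sex and day (y axis), filled where the adjusted p was under 0.1. *Acss1* is left out because of its low counts. Filled points are those of *Acss2*, *Pcca*, *Pccb* and *Acat1* over all groups and of *Acss2*, *Pcca* and *Pccb* in males at 7 dpl.

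The comparisons of SCFA against control within a sex and day had calls among the 9 in males at 7 dpl only. There 3 of the 9 were called, where 22.2% of all genes were. *Pcca* fell by 0.43 on the log2 scale (SE 0.13, adjusted p = 0.0210), *Acss2* fell by 0.28 (SE 0.10, adjusted p = 0.0563) and *Pccb* rose by 0.48 (SE 0.12, adjusted p = 0.00693). None of the 3 was called without SCFA replicates 1 and 3, where the log2 fold changes were -0.33 for *Pcca*, -0.22 for *Acss2* and 0.22 for *Pccb* and 3.21% of all genes were called. With the libraries that the study lists for this comparison *Pccb* had a log2 fold change of -0.0014 (adjusted p = 0.995), and *Pcca* and *Acss2* had -0.28 and -0.14. That fit held only those libraries and had no block for the run, between which *Pccb* differed. Within that fit the choice of libraries and the missing block cannot be told apart. With all libraries and no block, *Pccb* had 0.34 (adjusted p = 0.257), beside the 0.22 with the block and without SCFA replicates 1 and 3. With the reported fit but without control replicate 2, *Acss2* had -0.20 (adjusted p = 0.30) and *Pcca* -0.39 (adjusted p = 0.102). *Acss2* was also not called without control replicate 3 or without SCFA replicate 1 or 3 alone, at -0.28, -0.25 and -0.27.

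The other 5 comparisons called none of the 9 by edgeR. In males at 3 dpl 0.022% of all genes were called and 2 of the 9 had an unadjusted p under 0.05, and in males at 14 dpl these were 7.13% and 2. In females they were 8.11% and 1 at 3 dpl, 0.643% and 0 at 7 dpl, and 0% and 1 at 14 dpl, where 529 genes had an unadjusted p under 0.05 and DESeq2 called 1. DESeq2 called 1 of the 9, *Pccb* in females at 3 dpl (log2 fold change 0.33, adjusted p = 0.0951), and none in the other 4. That group holds the library rich in lens transcripts, with 70.0 CPM of *Pccb*. Its SCFA replicates 1, 2 and 3 also had pigment epithelium markers of 768, 1699 and 709 CPM, against 641 CPM at most in controls. *Pccb* was 60.8, 70.0 and 61.4 CPM in these and 48.4 and 47.3 CPM in replicates 4 and 5, of the second run. The part of the pigment epithelium was not tested. The mitochondrial shares of SCFA replicates 1, 2 and 3 were 7.95%, 5.41% and 12.6%, against 5.73%, 6.21% and 7.35% in female controls at 3 dpl. With this share as covariate none of the 9 was called there, as in the reported fit. By edgeR *Pccb* was called there when male SCFA replicate 1 at 3 dpl (log2 fold change 0.34, adjusted p = 0.0970) or replicate 2 at 7 dpl (0.34, adjusted p = 0.0840) was left out. *Bdh1* in males was without overlap between treatments at 7 and 14 dpl and lower with SCFA, and *Acads* likewise at 14 dpl, but the log2 fold changes of -0.15, -0.26 and -0.51 had adjusted p-values of 0.436, 0.230 and 0.241. The share of all genes without such overlap was not counted.

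Neither the sex nor the day was shown to alter the response of any of the 9. The response in males minus that in females, over the 3 days, called 0% of all genes and none of the 9 by edgeR. Of all genes 1296, and of the 9 1, had an unadjusted p under 0.05, and DESeq2 called 5 genes and none of the 9. The responses at 7 minus 3 dpl and at 14 minus 3 dpl called 0% of all genes, and that at 14 minus 7 dpl called 0.022%. None of the 9 was among them, with 1, 0 and 2 of the 9 at an unadjusted p under 0.05. The response of males minus that of females on each single day called none of the 9 either, with 1 of the 9 at an unadjusted p under 0.05 each day. The smallest unadjusted p was that of *Pccb* at 7 dpl, 0.0110, with a difference of 0.47 (SE 0.17, adjusted p = 0.547).

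Levels in control retinas did not pass the test for a difference between sexes or days. Male against female controls called 0.703% of all genes and none of the 9 by edgeR or DESeq2, with 1 of the 9 at an unadjusted p under 0.05. This was *Pcca*, higher in males by 0.24 on the log2 scale (SE 0.08, adjusted p = 0.20). Controls at 7 against 3 dpl called 0% of all genes, 14 against 7 dpl 0% and 14 against 3 dpl 0.0824%, and none of the 9 by edgeR, with 1, 1 and 0 at an unadjusted p under 0.05. For the first pair of days and the second, 1191 and 1701 genes had an unadjusted p under 0.05 and DESeq2 called 14 and 32 genes, none of them among the 9. *Pcca* had log2 differences of 0.35 from 3 to 7 dpl (SE 0.10, adjusted p = 0.590) and -0.23 from 7 to 14 dpl (SE 0.10, adjusted p = 0.507). Without male control replicate 1 at 3 dpl, which had the highest *Pcca* of all libraries, the first of these was 0.44 and was called (adjusted p = 0.0886).

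Of 38 other enzymes of the same pathways, listed by role, 32 had enough counts to test. The 6 that did not, *Acsm1*, *Acsm2*, *Acsm4*, *Acsm5*, *Oxct2a* and *Oxct2b*, had at most 9 counts in any library. Over both sexes and all days 18 of the 32 were called, 10 higher and 8 lower with SCFA. Of all genes 34.7% were called, 17.7% higher and 17% lower. In the steps from propionyl-CoA to succinyl-CoA and their cofactors, 4 of 7 rose and none fell. In beta-oxidation 4 of 11 rose and 3 fell, and among the enzymes of acetyl-CoA use and transport none of 7 rose and 3 fell. Among those of ketone bodies 1 of 5 rose and 2 fell, and of the 2 further enzymes that activate acids 1 rose. Without the 3 libraries that stood apart, 13 of the 32 were called, 8 higher and 5 lower, beside 32.3% of all genes. In the first run alone 12 were called, 8 higher and 4 lower, beside 28.5%. With the mitochondrial share as covariate 11 were called, 6 higher and 5 lower, beside 31.2%.

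The smallest adjusted p-values among them were those of *Acat2*, the cytosolic counterpart of *Acat1*, which rose by 0.34 (SE 0.05, adjusted p = 1.23e-05), *Mmachc*, which processes vitamin B12 for methylmalonyl-CoA mutase, which rose by 0.23 (SE 0.04, adjusted p = 4.78e-05), and *Hadhb*, the beta subunit of the mitochondrial trifunctional protein, which rose by 0.21 (SE 0.04, adjusted p = 0.000420). All 3 were called without the 3 libraries that stood apart, and *Hadhb* was not called with the GC trend removed (0.07, adjusted p = 0.271). 2 more enzymes of the propionyl-CoA route were chosen for naming after their values were seen. *Mmut*, the mutase itself, rose by 0.28 (SE 0.07, adjusted p = 0.00252), and *Hlcs*, which attaches biotin to carboxylases including the *Pcca* product, by 0.37 (SE 0.09, adjusted p = 0.00143). Of the 9 enzymes of this route tested, *Pcca* was the one called lower.

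In males at 7 dpl 10 of the 32 were called, 6 higher and 4 lower, beside the 22.2% of all genes. Without SCFA replicates 1 and 3, 1 of the 32 was called, lower with SCFA, beside 3.21% of all genes. In the first run alone 8 were called, beside 20.5%, and with the mitochondrial share as covariate 7, beside 20.9%. In the reported fit *Acadvl*, the very-long-chain acyl-CoA dehydrogenase, fell by 0.88 (SE 0.20, adjusted p = 0.00229). *Hadha*, the alpha subunit of the trifunctional protein, fell by 0.36 (SE 0.09, adjusted p = 0.00748). *Mmut* rose by 0.62 (SE 0.17, adjusted p = 0.00963), and this rise was not called without SCFA replicates 1 and 3. In females at 3 dpl 12 of the 32 were called, 11 higher and 1 lower, beside the 8.11% of all genes. This was 2 without the 3 libraries that stood apart, beside 0.735% of all genes, and the one rich in lens transcripts is in this group. SCFA replicates 1, 2 and 3 of this group also had larger sums of pigment epithelium markers than any control. The count of 12 became 0 without the run as block, beside 0.50% of all genes, and 5 with the mitochondrial share in its place, beside 6.30%. In the first run alone it was 14, beside 16.9%. Among those called were *Hadh*, a hydroxyacyl-CoA dehydrogenase of beta-oxidation (0.55, SE 0.11, adjusted p = 0.0128), and *Acadl*, the long-chain acyl-CoA dehydrogenase (0.53, SE 0.13, adjusted p = 0.0273). *Mmachc* and *Acat2* were the 2 called in males at 14 dpl, both higher, and *Hadhb* the 1 called in females at 7 dpl, also higher. In controls *Mmachc* was the 1 enzyme that differed between the sexes, lower in males by 0.27 (SE 0.06, adjusted p = 0.0275).

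**Figure D4:**
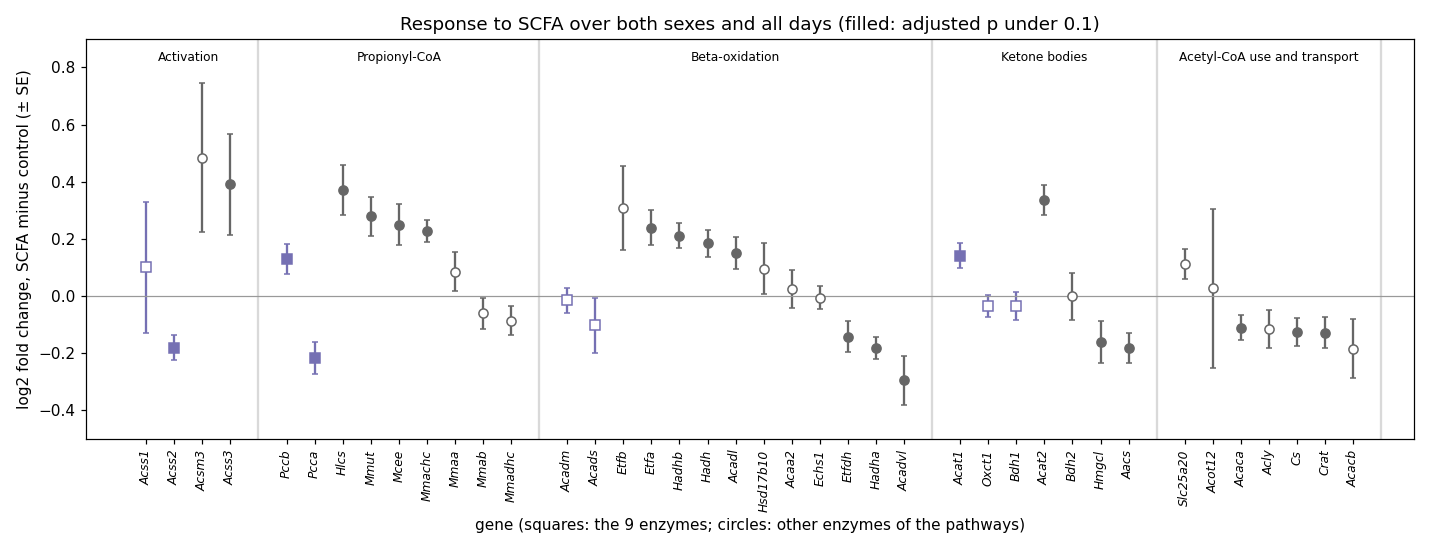
Log2 fold change of SCFA against control over both sexes and all days (y axis, bars 1 SE) for the 9 enzymes (squares) and other enzymes tested (circles, 1 of the 32 not shown), grouped by role along the x axis and filled where the adjusted p was under 0.1. *Pcca* lies at -0.22 and *Pccb* at 0.13 in the propionyl-CoA group, and *Hadha* at -0.18 and *Hadhb* at 0.21 in the beta-oxidation group.

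Across the 43 libraries, with the mean of each run subtracted from log2(CPM + 1), the 36 pairs among the 9 enzymes had Pearson correlations from -0.46, between *Acss2* and *Pccb*, to 0.42, between *Pccb* and *Acat1*. *Acss2* and *Pcca*, the pair that fell with SCFA, had 0.42, and *Pcca* and *Pccb* had -0.28. All points share groups and library effects. The genes most like each enzyme in this measure were *Hadha* (0.80), *Wipi2* (0.76) and *Gramd1a* (0.74) for *Pcca*, *Snrnp200* (0.77), *Polr3a* (0.74) and *Pde8b* (0.74) for *Acss2*, and *Slc33a1* (0.71), *Mmd* (0.70) and *Pop4* (0.70) for *Acat1*. For *Pccb* they were *Hint1* (0.83), *Sec61g* (0.81) and the mitochondrial ribosomal RNA *mt-Rnr1* (0.80). *Bdh1* was most like *Rrp1* (0.77), *As3mt* (0.76) and *Yju2* (0.74), and *Acads* most like *Fxyd6* (0.68), *Myh14* (0.67) and *Dlg3* (0.67). The highest values were lower for *Acadm* (*Isyna1*, 0.60, *Plpp2*, 0.54, *Rasgrp2*, 0.54), *Oxct1* (*AU021092*, 0.59, *Enpp1*, 0.55, *Tmem159*, 0.52) and *Acss1* (*Gfap*, 0.58, *Tns1*, 0.57, *Cybb*, 0.55). *Slc33a1*, the acetyl-CoA transporter of the endoplasmic reticulum, rose by 0.31 with SCFA over both sexes and all days (adjusted p = 0.00233).

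**Figure D5:**
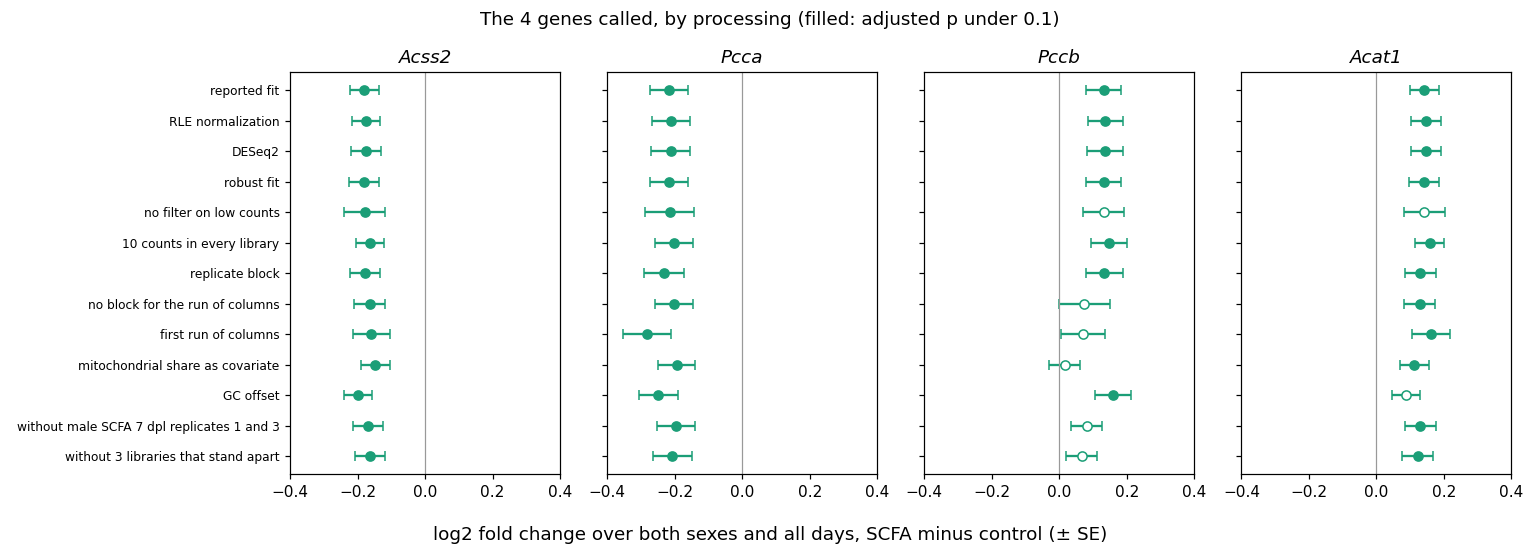
Log2 fold change over both sexes and all days (x axis, bars 1 SE) of the 4 enzymes called, under the reported fit and 12 alternatives (y axis), filled where the adjusted p was under 0.1. *Acss2* and *Pcca* were called under all of those shown, with log2 fold changes of -0.20 to -0.15 and -0.28 to -0.19, whereas *Pccb* was not called under 6 of them and *Acat1* not under 2.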

How the data were processed

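The data were whole-number counts of reads per gene, deposited by the authors as 1 table of 54532 genes and 43 libraries, with 14826957 to 21507527 counts per library. The submitters' processing notes name the mouse build mm10 and DESeq2. The aligner, the annotation and the strand setting were not given in the sources used here. Genes were matched by Ensembl ID to GENCODE M21 on GRCm38, where 54495 were found and 37 were not. Promoter windows were those of RefSeq on GRCm38.p6.

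Groups came from the titles of the samples, since the treatment field of the labels reads control for all 43 libraries, so the assignment to SCFA rests on the titles alone. Counts were filtered with filterByExpr, scaled by TMM and fitted with edgeR 4.0.16 in R 4.3.3 by the quasi-likelihood test, in 1 fit of all 12 groups with the run of columns as block and Benjamini-Hochberg adjustment. Genes were called at an adjusted p under 0.1. CPM used the TMM-scaled library sizes, and a count of 3 was taken as the floor. Each library is a pool of 2 retinas, so p-values measure the spread between such pools. Libraries were not treated as paired by replicate number in the reported fit, since such a pairing was not shown. DESeq2 1.42.0, another normalization, 2 other filters, other designs and each library left out in turn were run as alternatives. The GC correction, the removal of the libraries that stood apart and the recounts of the other pathway enzymes were chosen after seeing the data. The reported fit was checked on simulated counts in the comparison over both sexes and all days only. It called 42% of 100 genes changed by 0.25 on the log2 scale and 96% of 100 changed by 0.5. Tables and plots were made with Python 3.11.15, numpy 2.4.6, pandas 2.3.3 and matplotlib 3.10.9.

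The 9 enzymes, the list of 38 others and the marker lists were chosen with earlier results of these data known. 2 further enzymes, *Mmut* and *Hlcs*, were named for the comparison over all groups after their values were seen. Otherwise, by rule, the text names all 9, at most the 3 other enzymes with the smallest adjusted p among those called in a comparison, those not detected, and for each of the 9 the 3 genes of highest correlation. The values of 1 of the other enzymes are not reported here, although it is part of the counts.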

Additional observations from a re-analysis of the deposited data

How the results depend on the processing

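Of the 9 enzymes, 4 were called over both sexes and all days. This was 0 with the added limit of 1 on the absolute log2 fold change (0.703% of all genes called), 2 without the filter on low counts (15.8% of 35603 genes), and 3 to 4 without any one library. *Acss2* and *Pcca* were called under all alternatives except the fold limit. In males over the 3 days 4 were called. This was 2 without the 3 libraries that stood apart (24.6% of all genes called) and 3 in the first run alone (24.6%). With the mitochondrial share as covariate it was 2 (25.4%). In males at 7 dpl 3 were called. This was 0 with the fold limit (3.37% of all genes called) and with the libraries the study lists, fitted without the run as block (19.1%). It was also 0 without SCFA replicates 1 and 3 (3.21%) or the 3 libraries that stood apart (4.07%). It was 1 without the filter (9.69%), without the run as block (11.5%) or with the mitochondrial share as covariate (20.9%). It was 1 to 3 without any one library, with 1 without male control replicate 2. In females at 3 dpl 0 were called, and 1, *Pccb*, by DESeq2 (10.6% of all genes called), with only the groups compared (16.3%) and without male SCFA replicates 1 and 3 at 7 dpl (8.46%), and 0 to 1 without any one library. In females at 14 dpl 0 were called, and 1 with the libraries the study lists and no block for the run (17.7%), *Acss2* (-0.39, adjusted p = 0.0760). For controls at 7 against 3 dpl it was 0 to 1 without any one library. The cause of these changes was not tested.

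Some signs turned. *Pccb* in males at 7 dpl, called at 0.48, had -0.0014 with the libraries the study lists and no block for the run. The others were not called. *Acads* and *Bdh1* had 0.0264 and 0.0003 with the GC correction, *Acadm* had 0.0009 with 10 counts in every library and -0.0406 to 0.001 without any one library, and *Acss1* had -0.0437 to 0.22 without any one library. With the replicate number as block 4 enzymes were called over both sexes and all days and 3 in males at 7 dpl. Pairs of groups with the same number had a mean correlation of 0.06 (18 pairs, -0.54 to 0.60), so the numbers did not pair the libraries. Depth limits *Acss1*, with 2 to 24 counts per library.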
